A study of Mus musculus with 4 samples.

Results

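The response of the kidney to unfolded protein in the endoplasmic reticulum (ER) was followed through 32 genes chosen by symbol among the non-control probes of the arrays. They fall into 14 chaperones and folding factors, 7 genes of ER-associated degradation and translocation, 4 genes of the sensors and their transcription factor XBP1, and 7 genes of the arm that runs through the transcription factors ATF4 and CHOP. All 32 were measured, out of 25297 genes tested, and each was well above background on all 4 arrays, so no member was lost to the filter on dim probes. The members have 43 probes, and 8 of the genes have more than 1.

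Proteins that enter the secretory pathway fold in the ER with the help of chaperones, and a load of unfolded protein is sensed there by IRE1 (encoded by Ern1), ATF6 and PERK (encoded by Eif2ak3). IRE1 splices the Xbp1 mRNA and ATF6 is cut to release a transcription factor, and both routes raise chaperones and the machinery that sends misfolded protein to the proteasome. PERK slows translation while favouring that of ATF4, which drives genes of amino acid metabolism and, through CHOP (encoded by Ddit3), genes linked to cell death. In rodent models of membranous nephropathy, injury of podocytes, the epithelial cells of the kidney filter, is known to be accompanied by induction of ER chaperones. Splicing of Xbp1, cutting of ATF6 and translation of Atf4 are not read by the probes used here.

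The study compared kidneys of 2 control and 2 MN samples, where MN stands for experimental membranous nephropathy, a disease in which immune complexes collect on the outer side of the glomerular basement membrane. All mice were female BALB/C, 6 weeks old at the start, with no transgene or deletion named in the labels. Controls and MN mice alike received 0.2 mg of cationic bovine serum albumin (cBSA) in complete Freund's adjuvant, so the controls were immunized too. From 2 weeks later, MN mice were given cBSA intravenously at 13 mg/kg, 3 times a week for 6 weeks, and controls were given the vehicle, called saline in one label and PBS in others. The labels do not say whether each array holds 1 animal or a pool, nor whether replicates came from separate animals, so p-values here reflect only how far these arrays spread, which may be technical. Total RNA of the kidney was read, in which more RNA per cell and more cells of a type cannot be told apart.

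The promoters of the members show which of them carry the sequence elements that this response is known to use. The ER stress response element (ERSE), bound by ATF6 with the factor NF-Y, was searched as CCAAT, 9 bases of any kind, then CCACG. Its variant ERSE-II was searched as ATTGG, 1 base of any kind, then CCACG, the XBP1-related element UPRE as TGACGTGG, and the element of ATF4 with C/EBP factors, CARE, as TTGCATCA or TTTCATCA. Both strands were read over 250 bases before to 50 after each gene's start in RefSeq (GRCm38.p6), and ERSE and ERSE-II share the letters CCACG. A window was matched for 28 of the 32 members, all but Atf6, Derl1, Hyou1 and Manf. ERSE was found in 8 of these 28 (Calr, Canx, Creld2, Dnajc3, Hsp90b1, Hspa5, Pdia6 and Syvn1), against 0.137% of the 27025 genes with a window. ERSE-II was found in Dnajb11 and Herpud1, 2 of 28, against 0.0444% of genes. CARE was found in Asns, Chac1 and Herpud1, 3 of 28, against 2.16%. UPRE was found in 0 of 28, against 0.714%, which says only that these letters were not in the windows. The elements searched are those known for this response, and the members were picked as its genes. Shares above those of all genes were therefore likely beforehand and are no finding about these kidneys.

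The stretches below are shown because their genes span the range of responses: a chaperone gene, a folding factor and a degradation gene with ERSE and separated groups, a degradation gene with both ERSE-II and CARE, an ERSE gene without separated groups, and 2 CARE genes of which only the first had separated groups. Each runs 5′ to 3′ on the strand of its gene, ends at or before the base preceding the start, and has the element in capitals. The Hspa5 stretch lies at chr2:34771840-34772089 on the plus strand, with ERSE 65 to 47 bases before the start. Creld2 lies at chr15:88819469-88819588 (plus strand), Syvn1 at chr19:6046456-6046575 (plus), Herpud1 at chr8:94386292-94386411 (plus), Canx at chr11:50325750-50325869 (minus), Chac1 at chr2:119350993-119351112 (plus) and Asns at chr6:7693210-7693329 (minus). In Creld2 and Asns the element runs on the opposite strand, so its capitals read as the reverse complement.
Hspa5: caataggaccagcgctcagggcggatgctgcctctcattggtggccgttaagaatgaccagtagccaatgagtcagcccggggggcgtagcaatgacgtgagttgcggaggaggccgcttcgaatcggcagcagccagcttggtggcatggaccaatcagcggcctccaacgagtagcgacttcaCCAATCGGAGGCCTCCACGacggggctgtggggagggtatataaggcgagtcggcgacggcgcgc
Creld2: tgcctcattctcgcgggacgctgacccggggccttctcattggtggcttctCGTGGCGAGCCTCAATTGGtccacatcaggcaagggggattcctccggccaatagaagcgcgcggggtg
Syvn1: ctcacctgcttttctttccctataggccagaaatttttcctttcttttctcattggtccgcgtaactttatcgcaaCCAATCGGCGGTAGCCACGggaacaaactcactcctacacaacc
Herpud1: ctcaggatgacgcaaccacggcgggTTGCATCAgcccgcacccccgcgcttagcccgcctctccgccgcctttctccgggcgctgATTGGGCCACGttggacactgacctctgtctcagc
Canx: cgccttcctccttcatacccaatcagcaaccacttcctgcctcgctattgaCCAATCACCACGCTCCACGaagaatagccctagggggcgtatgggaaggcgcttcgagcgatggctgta
Chac1: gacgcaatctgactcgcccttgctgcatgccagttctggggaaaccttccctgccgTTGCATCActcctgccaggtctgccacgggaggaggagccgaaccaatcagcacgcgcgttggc
Asns: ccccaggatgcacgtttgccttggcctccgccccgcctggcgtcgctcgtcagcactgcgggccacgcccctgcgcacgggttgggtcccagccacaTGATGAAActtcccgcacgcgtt

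Among members with ERSE the median difference between MN and control was 0.27 (log2, range 0.046 to 0.66, 8 genes), and both MN arrays lay above both control arrays in 5 of the 8. Among the 20 members with a window but no ERSE the median was 0.071, with 9 of 20 separated in that way. Taking ERSE and ERSE-II together, 10 members held one (0.181% of all genes), with a median of 0.28 and 7 of 10 separated, against 0.058 and 7 of 18 for the others. The ERSE holders other than Syvn1 are all chaperones or folding factors, and element and role were not separated here. These are descriptions of the windows and not evidence of binding.

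Of the 55681 probes on each array, between 63.1% and 79.5% of non-control spots were well above background, with the highest share on control array 2 and the other 3 arrays at 63.1% to 65.9%. No spot was saturated. The slope of the spike-in controls was outside the scanner software's range on both slide 1 arrays (0.895 each) and within it on both slide 2 arrays. The 75th percentile of signal, to which each array was scaled, was 1204 on MN array 2 against 737 to 818 on the others. Replicates 1 of both groups shared slide 1 and replicates 2 shared slide 2, so the difference could also be read within each slide. Markers of proximal tubule were bright, with mean log2 levels of 6.33 to 8.25 relative to each array's 75th percentile of signal, and the 5 of 6 loop, distal tubule and collecting duct markers were tested, so the tissue label fits its markers. Across all genes, 5 were higher in MN at an adjusted p under 0.05 (limma, Benjamini-Hochberg over 25297 genes), which is 0.0198%, and 0 were lower. They were Adipoq, Cfd, Slpi, Mup18 and an antibody segment listed by transcript, named after their values were seen, and none is a member. Adipoq was well above background on neither control array and Cfd on only 1 control array. Before adjustment, 896 genes (3.54%) had p under 0.05 with MN higher and 885 (3.5%) with MN lower.

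Most of the members had larger values in MN, and of the 16 members whose groups were separated 9 were chaperones or folding factors. Members and role groups were chosen with earlier results of these data known. The comparisons with all genes below are therefore descriptions and not an independent test. No member passed the adjusted threshold, and the smallest adjusted p was 0.459, that of Chac1. At an unadjusted p under 0.05, 4 of 32 were higher in MN (Hspa5, Creld2, Sdf2l1 and Chac1), against 3.54% of all genes, and 0 were lower, against 3.5%. Both MN arrays lay above both control arrays in 16 of 32 members, against 13.2% of all genes, and below both in 0 of 32, against 19.8%. The difference was above 0 in 26 of 32 (38.6% of all genes) and above 0.2, on the log2 scale, in 16 of 32 (13.6% of all genes). Within both slides 20 members were higher in MN (23.2% of all genes) and 5 lower (40.1%). The median difference over the members was 0.21 (0.16 on slide 1 and 0.19 on slide 2), where that of all genes was -0.053 (-0.021 and -0.083).

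With the replicate number, which is also the slide, as a block in the limma fit, 10 of 32 members were higher at an unadjusted p under 0.05, against 6.28% of all genes, and 0 were lower, against 9.05%. In that fit the smallest adjusted p of a member was 0.18. Without control array 2, whose share of bright spots stood apart, both MN arrays lay above the remaining control array in 20 of 32 and below it in 7. Such orders are met more easily against a single array, and their share over all genes was not counted. The median over the members was then 0.13. Without MN array 1 the median over the members was 0.10.

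**Figure D1:**
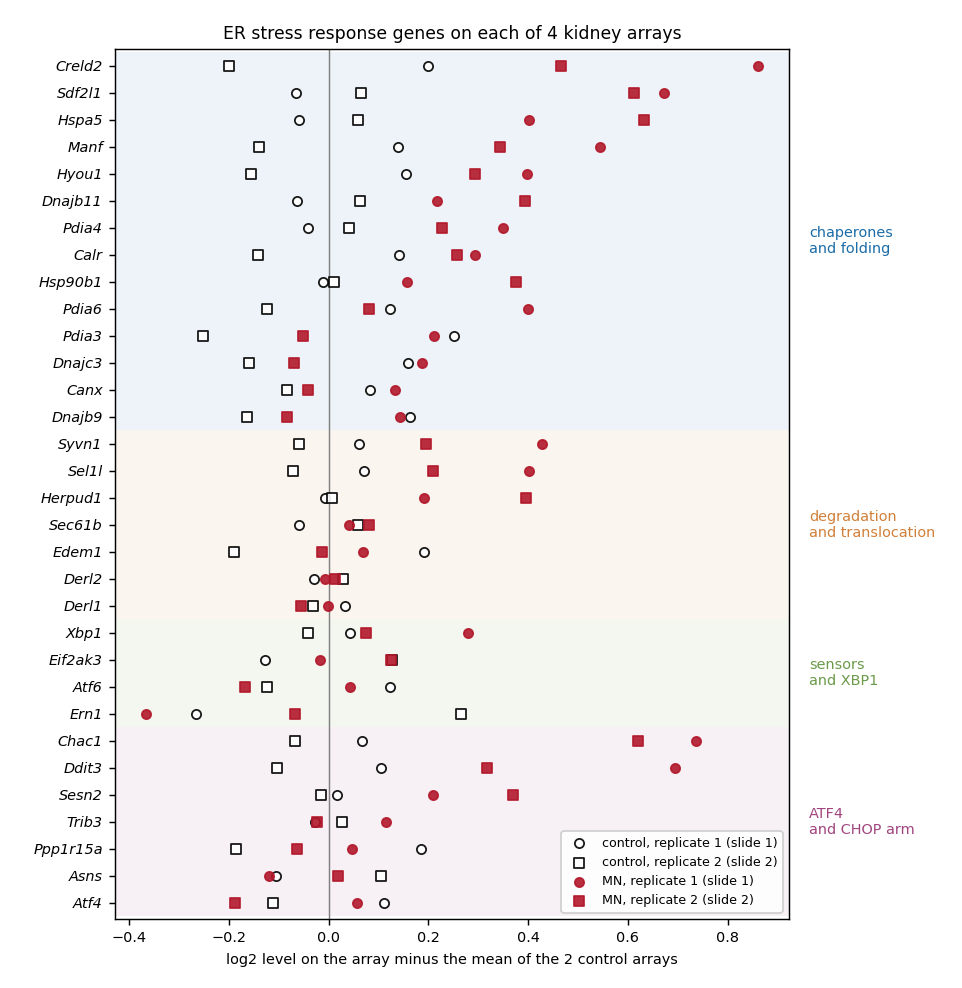
Log2 level of each of the 32 genes on each array, as the difference from the mean of the 2 control arrays (horizontal axis), with 1 row per gene grouped by role and 1 point per array. Points of both MN arrays lie to the right of both control arrays for 16 genes, 9 of them chaperones and folding factors, and to the left of both for none.

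Among the chaperones, Hspa5, which encodes BiP, the main Hsp70 of the ER, had log2 levels of 5.41 and 5.53 on control arrays 1 and 2 and of 5.87 and 6.10 on MN arrays 1 and 2. Both MN arrays were above both control arrays, and the difference of 0.52 ± 0.16 (SE, n = 2 arrays a group; 95% interval 0.072 to 0.96) corresponds to 1.43-fold, with an unadjusted p of 0.032 and an adjusted p of 0.617 (limma). The difference was 0.46 on slide 1 and 0.57 on slide 2. Its probe lies at chr2:34631913-34631972 (mm9).

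The largest differences of the group were those of Creld2 and Sdf2l1, ER factors that work beside the main chaperones. Creld2, an ER protein with disulfide isomerase activity whose gene responds to ER stress, had levels of 4.01 and 3.61 in control and 4.67 and 4.28 in MN. Its arrays of slide 1 were brighter than those of slide 2 in both groups, so the difference of 0.66 ± 0.24 (1.58-fold; adjusted p 0.71) had a wide error while its values within the slides, 0.66 and 0.67, were close. The probe (chr15:88656997-88657056, mm9) was spotted 10 times on each array, with an SD over spots of 0.036 to 0.077. Sdf2l1, a partner of ER DnaJ proteins in holding unfolded chains in solution, had levels of 0.34 and 0.47 in control and 1.08 and 1.02 in MN. Its groups were well apart, with a difference of 0.64 ± 0.14 (1.56-fold; adjusted p 0.464), 0.74 on slide 1 and 0.55 on slide 2 (probe at chr16:17130426-17130485, mm9).

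Manf, a small secreted protein of the ER that protects cells under stress, had levels of 2.91 and 2.63 in control and 3.32 and 3.11 in MN, a difference of 0.44 ± 0.18 (adjusted p 0.773). Hyou1, the large ER Hsp110 that acts as exchange factor for BiP, had levels of -2.35 and -2.66 in control and -2.11 and -2.21 in MN, a difference of 0.35 ± 0.18. In both genes the MN arrays were above both control arrays and the slides gave the same direction.

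Further down, Dnajb11, a DnaJ partner of BiP, had levels of 3.00 and 3.12 in control and 3.28 and 3.45 in MN, a difference of 0.31. Pdia4, a protein disulfide isomerase, had levels of 0.80 and 0.88 in control and 1.19 and 1.07 in MN, a difference of 0.29. Hsp90b1, which encodes GRP94, the Hsp90 of the ER, had levels of 5.42 and 5.45 in control and 5.59 and 5.81 in MN, a difference of 0.27. These 3 genes were also separated between the groups, but each interval reached below 0.

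Calreticulin and calnexin, lectin chaperones that hold newly made glycoproteins, differed in value. Calr had levels of 5.21 and 4.93 in control and 5.36 and 5.33 in MN, with separated groups and a difference of 0.28 ± 0.17, which was 0.13 without control array 2 and 0.42 without control array 1. Canx had levels of 5.25 and 5.08 in control and 5.30 and 5.12 in MN, with overlapping groups and a difference of 0.046 ± 0.16 (95% interval -0.39 to 0.48). Whether Calr and Canx differed from each other in their response was not tested.

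Pdia6, another disulfide isomerase, was higher in MN within both slides (0.28 and 0.20), yet the control array of slide 1, at 5.05, lay above the MN array of slide 2, at 5.01. Its second probe gave a similar difference, 0.22 against 0.24, and the latter ran from 0.082 without MN array 1 to 0.40 without MN array 2. The remaining chaperones, Pdia3 (0.080), Dnajc3 (0.059) and Dnajb9 (0.030), all had overlapping groups and intervals that reached from below -0.4 to above 0.5. Pdia3 is the disulfide isomerase that works with calreticulin and calnexin. Dnajc3 encodes P58IPK and Dnajb9 encodes ERdj4, both DnaJ partners of BiP, and Dnajb9 is a well known target of XBP1. Over the group, 14 of 14 differences were above 0, 9 had separated groups, with a median of 0.28 over both slides, 0.26 within slide 1 and 0.35 within slide 2. Without control array 2 the median was 0.23.

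**Figure D2:**
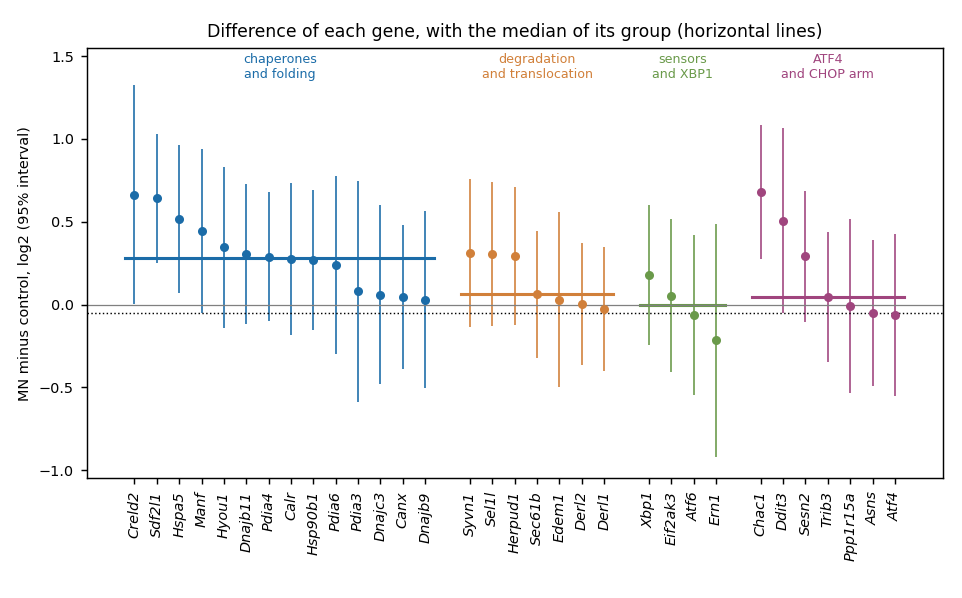
Difference between MN and control of each gene on the log2 scale (vertical axis), with limma's 95% interval as the error bar and genes ordered within their role group (horizontal axis). Thick lines mark group medians, from 0.28 for chaperones and folding to -0.0039 for sensors and XBP1, and the dotted line marks the median of all genes tested, -0.053.

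Within ER-associated degradation, 3 of 7 genes had separated groups and the other 4 lay within 0.1 of no difference. The 3 belong to the same retrotranslocation machine, and so do Derl1 and Derl2, whose groups overlapped. Syvn1, which encodes HRD1, the ubiquitin ligase at the centre of this machine, had levels of 4.01 and 3.89 in control and 4.37 and 4.14 in MN. The difference of Syvn1 was 0.31 ± 0.16 (limma, adjusted p 0.871). Sel1l, the partner that stabilizes HRD1, had levels of 0.93 and 0.78 in control and 1.26 and 1.06 in MN, a difference of 0.31 ± 0.16. Herpud1, which recruits ubiquitin factors to HRD1 and is itself a marker of ER stress, had levels of 5.66 and 5.68 in control and 5.86 and 6.07 in MN, a difference of 0.29 ± 0.15. Each of the 3 was higher in MN within both slides.

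The other 4 genes of the group were close to equal between groups. Sec61b, a subunit of the channel through which proteins enter the ER, differed by 0.061, and its second probe by -0.078. Edem1, a lectin that passes misfolded glycoproteins to degradation, differed by 0.028. Derl2 and Derl1, rhomboid-like proteins of the exit channel, differed by 0.0024 and -0.029. Their intervals were wide enough to hold a difference of 0.3 in either direction, so equality was not shown. The median of the 7 genes was 0.061 (0.10 on slide 1 and 0.18 on slide 2), and 0.22 without control array 1.

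Among the sensors, only the transcription factor gene Xbp1 had separated groups. Xbp1 had levels of 5.11 and 5.03 in control and 5.35 and 5.14 in MN, a difference of 0.18 ± 0.15 (95% interval -0.25 to 0.60), which was 0.075 without MN array 1 and 0.28 without MN array 2. Its lower MN array lay only just above its higher control array. Eif2ak3 had levels of 0.87 and 1.12 in control and 0.98 and 1.12 in MN, a difference of 0.054. Atf6 had levels of -0.26 and -0.51 in control and -0.34 and -0.55 in MN, a difference of -0.062. In both genes the groups overlapped. Ern1 had levels of -1.78 and -1.24 in control and -1.87 and -1.58 in MN, a difference of -0.22 ± 0.25, which turned to 0.050 without control array 2. The median of the 4 genes was -0.0039, and 0.093 without control array 2.

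In the ATF4 and CHOP arm, 3 of 7 genes had separated groups while Atf4 itself did not. Chac1, an enzyme that degrades glutathione and is induced by ATF4, had levels of -1.42 and -1.55 in control and -0.75 and -0.86 in MN. The gap between the groups was several times the gap within them, and the difference of 0.68 ± 0.15 (95% interval 0.27 to 1.08; 1.60-fold) was the largest of the 32 genes, with an adjusted p of 0.459 (limma). It was 0.67 on slide 1 and 0.69 on slide 2 (probe at chr2:119179990-119180049, mm9). Ddit3 had levels of 0.50 and 0.29 in control and 1.09 and 0.71 in MN, a difference of 0.51 ± 0.20 (1.42-fold; adjusted p 0.767), with 0.59 and 0.42 within the slides. Sesn2, a stress-induced regulator of the growth kinase complex mTORC1, had levels of 2.46 and 2.43 in control and 2.66 and 2.82 in MN, a difference of 0.29 ± 0.14.

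The remaining 4 genes of this arm had overlapping groups. Atf4 had levels of 5.54 and 5.32 in control and 5.49 and 5.24 in MN, a difference of -0.065 ± 0.18 (95% interval -0.55 to 0.42), and its second probe differed by -0.22. Trib3, a pseudokinase that CHOP and ATF4 induce, differed by 0.046, or -0.063 with normexp background correction. Asns, the asparagine synthetase that ATF4 induces when amino acids are short, differed by -0.050. Ppp1r15a, which encodes GADD34, the phosphatase subunit that ends the PERK signal, differed by -0.0083. The median of the 7 genes was 0.046 (0.14 on slide 1 and 0.12 on slide 2), and -0.063 with normexp background correction. Thus the arm held the largest single difference of all members beside 4 genes within 0.1 of no difference, whereas the chaperones ranged from 0.030 to 0.66 with all values above 0. Whether the role groups differed from each other was not tested.

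**Figure D3:**
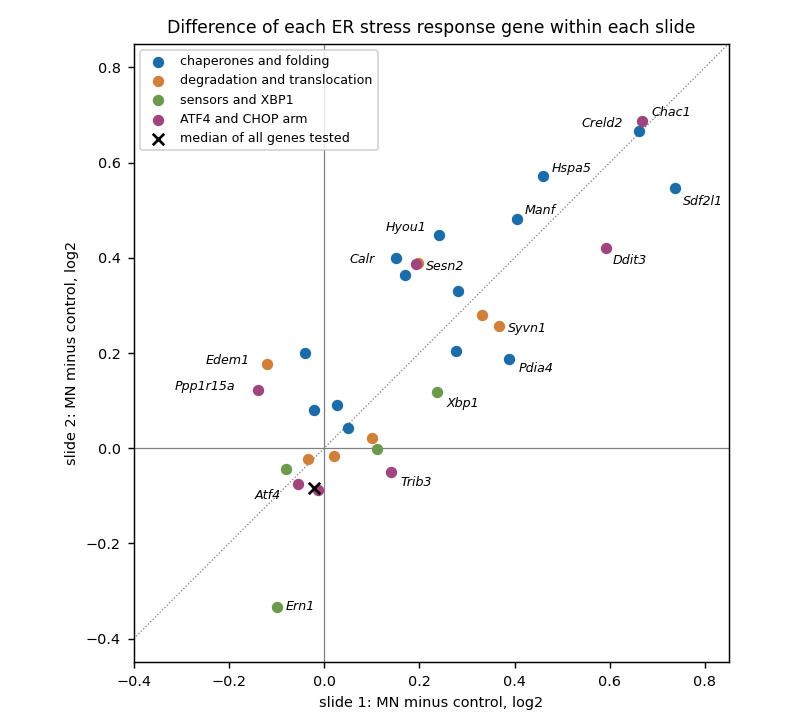
Difference between MN and control on slide 1 (horizontal axis) and on slide 2 (vertical axis), both log2, for each of the 32 genes, coloured by role, with equal values on the dotted line and the median of all genes as a cross. Of the 32 points, 20 lie above 0 on both axes and 5 below 0 on both, and Creld2 and Chac1 lie near the dotted line at 0.66 to 0.69.

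Other genes of the same pathways, listed by function, were centred near no difference. Their lists too were drawn up with earlier results of these data known. Of 147 such genes 144 were tested, and 0 passed the adjusted threshold in either direction. At an unadjusted p under 0.05 (limma) 3 were higher and 2 lower, against 3.54% and 3.5% of all genes. The median difference of the 144 was -0.015, with 65 above 0 (38.6% of all genes) and 79 below. Both MN arrays lay above both control arrays in 29 and below both in 25, against 13.2% and 19.8% of all genes. Of 41 other folding, oxidation and glycan genes, 11 were separated upwards and 7 downwards (median 0.011). Txndc11, a thioredoxin-like ER protein, differed by 0.45 on the probe used and by -0.62 on another. Of 44 other degradation and translocation genes, 4 were separated in each direction (median -0.029). Derl3, the derlin that is typical of secretory cells, had levels of -1.58 and -1.64 in control and -0.39 and -0.45 in MN. Its difference of 1.19 ± 0.13 (adjusted p 0.274) was 1.19 on both slides, while Ngly1, which removes glycans from exported proteins, differed by -0.57. Of 20 other sensors and partners, 4 were separated upwards and 8 downwards (median -0.11), with Creb3l3, an ATF6-like factor, at -0.44 and Casp12, a caspase of the ER, at 0.41. The lowest value of that list, -0.71 (-0.23 by its dimmest probe), was that of Bcl2l11, a cell death factor that CHOP can induce, which was not well above background on MN array 2 and is named here after its value was seen. Bcl2l11 was the only gene of the list at an unadjusted p under 0.05 (limma without the block). With the replicate block 2 genes of the list were higher and 3 lower, against 6.28% and 9.05% of all genes.

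Of 43 other genes of the ATF4 and CHOP arm 40 were tested (median -0.013). Of these, 10 were separated upwards and 6 downwards, against 13.2% and 19.8% of all genes. Nupr1, a stress-induced chromatin protein, had levels of 2.37 and 2.34 in control and 3.54 and 3.66 in MN, a difference of 1.24 ± 0.14 (adjusted p 0.27). In the opposite direction, Slc1a4, a transporter of neutral amino acids, had levels of 3.02 and 3.35 in control and 2.30 and 2.03 in MN, a difference of -1.02 ± 0.20 (adjusted p 0.424). The serine synthesis enzyme Phgdh and the stress cytokine Gdf15 both differed by 0.29. The genes of this arm thus held values far apart in both directions.

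Several lists of marker genes of other cells also had larger values in MN and others had not, and their part in these differences was not tested. Plasma cells are rich in ER chaperones and in Xbp1. Of 13 plasma cell markers 12 were tested and 6 were separated upwards, against 13.2% of all genes. The 11 without the member Xbp1 had a median difference of 0.077, with 5 separated upwards and 1 downwards. The summed signal of these 11, in units of each array's 75th percentile, was 2.88 and 2.80 in control and 25.5 and 27.9 in MN. Most of that sum came from antibody chains, with Igkc at a difference of 4.14 ± 0.22 (adjusted p 0.0713) and Ighg1, by the probe used, not well above background in control, while its second probe was so on 1 control array. The list also holds Derl3, as well as Jchain at 3.23 (limma, adjusted p 0.0665) and Mzb1 at 0.82, both with separated groups. Of the 11 markers, 4 lay within 0.1 of no difference. Tnfrsf17, a surface receptor of plasma cells, was not well above background on any array, and Sdc1, which kidney epithelium also expresses, differed by -0.42. Another cell type rich in chaperones, the pancreas acinar cell, had 4 of 7 markers tested, with summed signals of 0.261 and 0.418 in control and 0.357 and 0.292 in MN.

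Podocyte markers were separated upwards in 4 of 6, with a median of 0.56, where 13.2% of all genes were separated upwards and 19.8% downwards. All 6 markers of dividing cells were separated upwards, with a median of 0.77 and Mcm6, a subunit of the replicative helicase, at 0.99. Neutrophil markers were so in 4 of 6 tested, with a median of 0.44 and S100a8 at 1.49. Another neutrophil marker, Ly6g, differed by -0.24 and was lower in MN on both slides. Of the adipocyte markers 5 of 7 were separated upwards, and of the liver markers 5 of 5 tested. The same held for 4 of 7 markers of fibroblasts, pericytes and smooth muscle (median 0.26) and for 4 of 9 of macrophages and dendritic cells (median 0.24). In the latter list 1 marker was separated downwards, and Adgre1 and C1qb were separated upwards only just. Itgam differed by 1.13 on the probe used and by -0.21 and -0.19 on its other probes. In the opposite direction, B cell markers were separated downwards in 2 of 6 (median -0.24) and adrenal markers in 2 of 4 tested (median -0.48), with none upwards in either list. Endothelial markers had a median of -0.029, with 1 of 6 separated upwards. Proximal tubule markers had a median of 0.016, with 0 of 6 separated upwards and 1 downwards. Of the genes in these lists only Adipoq and Cfd passed the adjusted threshold, and no member is among them. Adipoq and Retn were well above background on neither control array, and Cfd and Ahsg on only 1 control array. These 4 were kept through the MN arrays, where their values were higher. Hsd3b1, counted among the adrenal markers, was well above background on neither MN array. With only probes well above background on all 4 arrays, no gene passed the threshold.

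**Figure D4:**
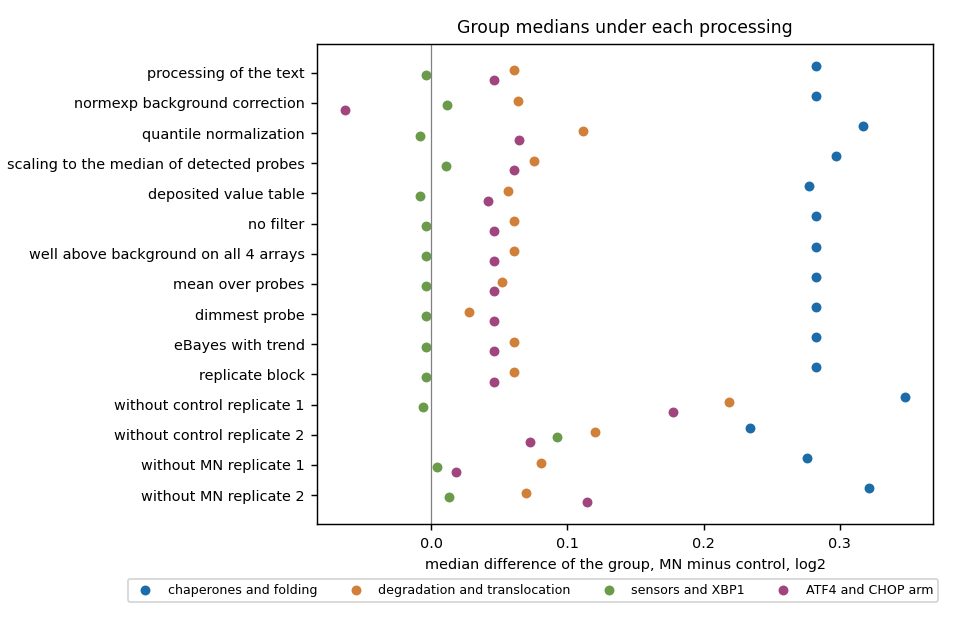
Median difference between MN and control (log2, horizontal axis) of each role group under the processing used in the text and 14 alternatives (vertical axis), with 1 point per group and setting. The median of the chaperones stays between 0.23 and 0.35, and that of the ATF4 and CHOP arm runs from -0.063 to 0.18.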

How the data were processed

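Cy3-labelled kidney RNA of 2 control and 2 MN samples (0.2 µg of RNA labelled, 0.6 µg of cRNA fragmented) was measured on 1-colour Agilent mouse arrays, per the labels' protocols. The deposited scanner output gives the linear intensity of each spot, background-subtracted and detrended by Agilent Feature Extraction 10.5.1.1, per the file headers, with no scaling between arrays. The deposited value table holds log2 values. Set against the scanner files over 55663 probes, these were log2 signal scaled to the 75th percentile minus the control mean, with column medians of 0.03 and -0.03 (control) and -0.03 and -0.04 (MN), and with replicates 1 and 2 exchanged within each group. Which order is right is unknown, and group means do not depend on it.

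Each processed signal was divided by its array's 75th percentile over 59305 non-control spots and put on the log2 scale. Outlier spots (79 to 178 per array) were left out and spots of a probe averaged. A probe was kept where both arrays of 1 group or more read it well above background, and a gene was represented by the kept probe with the highest mean over the 4 arrays. Probes were named by accession (28026), symbol (3418) or synonym (294) in the RefSeq table of GRCm38.p6, and otherwise as in the files (23943), with antibody chains from the files' descriptions. Probe positions are on mm9. Exon or UTR status of the probes was not used here.

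The test was limma 3.58.1 (R 4.3.3; lmFit and eBayes), two-sided, with p-values adjusted by Benjamini-Hochberg over 25297 genes and a threshold of 0.05, and the script was tested on simulated data. Tables and figures used Python 3.11.15, pandas 2.3.3 and matplotlib 3.10.9. Slide, scan and replicate number coincide per the file headers. The replicate 1 arrays deviated together from their groups (correlation of 0.63 across genes), so a fit with the number as a block was run beside the fit without it. The members, the role groups and the gene lists were chosen with earlier results of these data known. The naming rule took any member and 2 genes of each marker list. From each other pathway list it took up to 5 genes with the largest absolute difference among those well above background on all 4 arrays. Ly6g, Retn, Adgre1, C1qb, and plasma cell markers beyond the 2 of their list, were named after their values were seen. Only 2 arrays a group limit the precision.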

Additional observations from a re-analysis of the deposited data

How the results depend on the processing

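Under the 14 alternatives, 0 of 32 members passed the adjusted threshold in any. Of the 17 members whose difference exceeded 0.2 in size, only Ern1 changed sign, in 1 alternative. Genes past the threshold and higher in MN, 5 in the text, numbered 15 with normexp background correction, 20 with quantile normalization, 11 with each array centred on its median, 16 with a variance trend, 22 at an adjusted p under 0.1, 0 with no filter, 0 with probes well above background on all 4 arrays, 0 with the replicate block and 0 to 0 without any 1 array. Members with both MN arrays below both control arrays, 0 in the text, numbered 2 with normexp and 2 to 7 without 1 array. The last order is met more easily, since 1 group then has a single array, and its share over all genes was not counted. Members higher at an unadjusted p under 0.05 (limma), 4 in the text, numbered 2 with no filter and 10 with the replicate block. Without 1 array, the differences of those 4 ran from 0.40 to 0.63 (Hspa5), 0.46 to 0.86 (Creld2), 0.58 to 0.71 (Sdf2l1) and 0.61 to 0.75 (Chac1). A fit without 1 array has less from which to estimate the spread, so its counts by p-value do not show what that array contributed. Group medians without 1 array ranged from 0.070 to 0.22 for degradation and translocation and from -0.0057 to 0.093 for sensors and XBP1.

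Signs changed in members near 0. With normexp, Trib3 was -0.063 and Derl1 0.017, and Derl1 was 0.0047 with quantile normalization. With that centring Ppp1r15a was 0.0064, and in the deposited table Derl2 was -0.0021. With the dimmest probe Derl1 was 0.018, Sec61b -0.078 and Txndc11 -0.62, and with the mean over probes Sec61b was -0.0086 and Txndc11 -0.089. Without 1 array, the values ranged from -0.17 to 0.33 (Pdia3), -0.042 to 0.13 (Canx), -0.13 to 0.19 (Dnajb9), -0.10 to 0.22 (Dnajc3), -0.16 to 0.22 (Edem1), -0.48 to 0.050 (Ern1), -0.072 to 0.18 (Eif2ak3), -0.19 to 0.061 (Atf6), -0.19 to 0.058 (Atf4), -0.023 to 0.11 (Trib3), -0.16 to 0.055 (Asns), -0.19 to 0.18 (Ppp1r15a), -0.061 to 0.0035 (Derl1) and -0.027 to 0.031 (Derl2). Among members that kept their sign, the value without 1 array moved by over 1.5 times for Pdia6 (0.082 to 0.40), Calr (0.13 to 0.42), Xbp1 (0.075 to 0.28), Hsp90b1 (0.16 without MN 2), Herpud1 (0.19 without MN 2), Hyou1 (0.19 without control 2), Syvn1 (0.20 without MN 1) and Ddit3 (0.32 without MN 1). The median of the 32 members ranged from 0.10 without MN 1 to 0.25 without control 1. Fits without 1 array assume that the lone array varies like the other group, and the cause of these changes was not tested. The replicate block changed no other call.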

Other observations

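Among bright probes, those with a mean log2 level above 4, the members stood with 7 of 12 genes whose MN arrays both lay above both control arrays, where 7.34% of the 2615 genes of that brightness did, and their median difference was 0.25 against -0.053. Dimmer members were fewer per range: 3 of 7 against 12.7% of 3656 genes at levels of 2 to 4, 4 of 7 against 17.1% of 4687 at 0 to 2, 1 of 5 against 16.4% of 5137 at -2 to 0, and the single member below -2 against 11.3% of 9202. In the range from -2 to 0 the members' median was -0.050, where that of all genes was -0.039.

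Where a member had another probe well above background on all 4 arrays (7 probes of 6 genes), 5 had the sign of the probe used and all 7 were within 0.2 of it. The other 3 probes of Ern1, which target other transcripts, were well above background on 2, 1 and 0 of the 4 arrays, and the second probe of Dnajb11 on 0.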
